A study of Saccharomyces cerevisiae with 30 samples.

Results

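The synaptonemal complex and crossover (ZMM) genes of *Saccharomyces cerevisiae* described here were *ZIP1*, *ECM11*, *GMC2*, *ZIP2*, *SPO22* (also called *ZIP4*), *SPO16*, *ZIP3*, *MSH4*, *MSH5* and *MER3*. They were taken by name, 10 of the 7126 genes listed in each count table, and all 10 passed the filter on low counts that left 5493 genes for testing. In polysomal RNA from meiotic cells every one of the 10 was lower in *ime4-cat* than in WT, by 1.88-fold for *ZIP2* to 7.58-fold for *GMC2*. The median log2 fold change of the 10 was −1.76, beside −0.01 over all tested genes.

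The study asked what the m6A methyltransferase Ime4p does in meiosis. It sequenced polyadenylated RNA of cells taken after 5 h in SPO medium (potassium acetate, which starts meiosis and sporulation), either whole lysate RNA (input) or RNA from pooled polysome fractions of sucrose gradients. The groups compared were 3 *ime4-cat* polysome and 3 WT polysome libraries. The *ime4-cat* cells carried, on both copies of *IME4*, a pair of amino acid substitutions that inactivate the enzyme, and the WT cells carried unaltered *IME4*. All were SK288C diploids, that is S288C-derived cells with SK1 alleles of *TAO3* and *MKT1*, the S288C allele of *RME1* (*rme1-S288C*), and deletions of *HIS3*, *LEU2*, *LYS2* and *URA3*. The sources used here do not say whether each genotype came from 1 clone.

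The 6 libraries held 586141 to 1262397 counts on genes. In the other 12 RNA-seq libraries the title disagreed with the strain number or the fraction letter (p or t) of the count table, so they entered no test between genotypes, and their levels are given as values only. One of these, the third library titled WT input, stood apart from the other 2 with its title. The study's 12 samples for m6A-seq were not used. The substitutions in *IME4* lie within a gene that is still transcribed, so its count does not check the genotype: *IME4* averaged 127 ± 30.3 CPM in *ime4-cat* and 184 ± 29.7 CPM in WT (SD, n = 3 each, edgeR adjusted p = 0.058). CPM here is the number of counts at a common library size, taken over tested genes with TMM factors.

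During meiotic prophase homologous chromosomes are joined along their length by the synaptonemal complex, a zipper-like protein structure. Zip1p forms its transverse filaments, and Ecm11p with Gmc2p forms its central element. The ZMM proteins mark a subset of recombination intermediates, protect them from being taken apart, and channel them into crossovers that are spaced along the chromosome. They also form the sites from which the synaptonemal complex is assembled, which is why both sets of genes are described together. Early meiotic genes of yeast are switched on when Ime1p turns the repressor Ume6p, bound at URS1 sites in their promoters, into an activator. Rme1p represses *IME1*.

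The URS1 core GGCGGC was looked for on both strands from 250 bases before to 50 bases after each start codon of the R64 genome from RefSeq, the assembly also known as sacCer3. It was found in 308 of 6001 nuclear protein-coding genes (5.13%) and in 4 of the 10 genes described here, *ZIP1*, *SPO22*, *SPO16* and *ZIP3*. *ZIP3* had a second match directly after its start codon. The 5 matches are shown because URS1 is the element through which Ime1p acts; they are written on the gene strand, with the core in capitals and 10 bases on either side.
ZIP1 (chrIV:1032406-1032431, plus strand): aaataccctcGGCGGCtaaattttta
SPO22 (chrIX:226063-226088, minus strand): tacaaacttcGGCGGCtaattgcaaa
SPO16 (chrVIII:402755-402780, minus strand): gtgaaaagtgGGCGGCtaaaaccgag
ZIP3, first match (chrXII:907925-907950, plus strand): cgctttgtgcGGCGGCcaacaaggga
ZIP3, second match (chrXII:907943-907968, plus strand): acaagggatgGGCGGCtatttggcga

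All 5 cores read in the direction of the gene. They began 20 bases before the start codon in *ZIP1*, 124 in *SPO22*, 88 in *SPO16* and 15 in *ZIP3*. *ECM11*, *GMC2*, *ZIP2*, *MSH4*, *MSH5* and *MER3* did not hold these letters in this window. The middle sporulation element core CACAAA, bound by Ndt80p in genes of later meiosis, was present in *ZIP3* and *MSH5*, that is in 20% of the 10 genes and in 18.8% of all genes, and neither match overlapped a URS1 core.

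**Figure D1:**
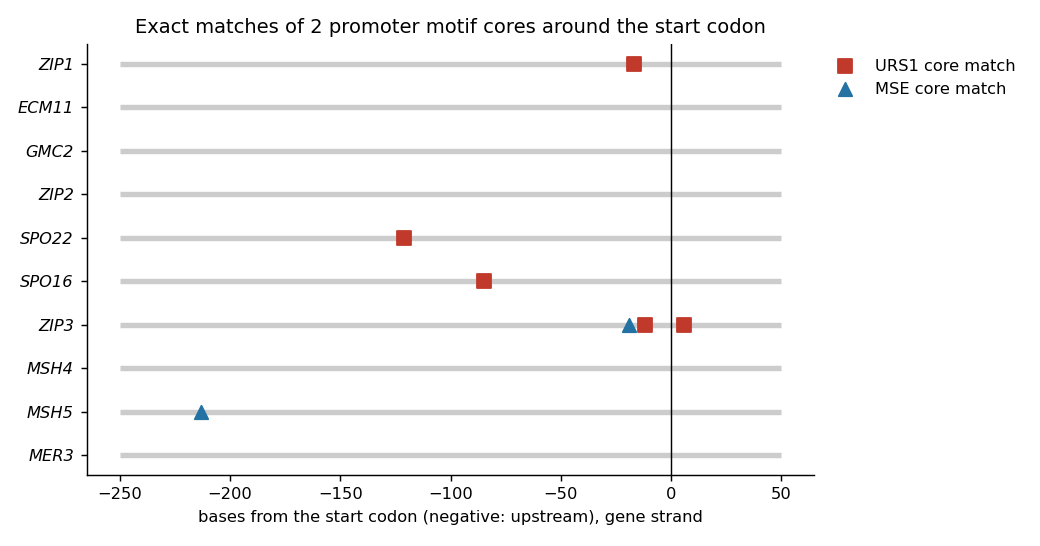
Positions of exact matches to the URS1 core (red squares) and the middle sporulation element core (blue triangles) in the window from 250 bases before to 50 bases after the start codon of each gene; the x axis gives bases from the start codon, negative upstream, and each grey bar is a window. URS1 cores lie in *ZIP1*, *SPO22*, *SPO16* and *ZIP3*, and none lies in the other 6 windows.

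Introns are rare in yeast, with 271 of 6002 nuclear protein-coding genes (4.52%) annotated with one, and 3 of the 10 genes have one: *GMC2*, *SPO22* and *MER3*. The introns of *SPO22* and *MER3* are known targets of Mer1p, a splicing factor made only in meiosis that acts with Nam8p through an intronic enhancer. The enhancer letters ANACCCTN occurred on the gene strand in 11 of the 271 intron-bearing genes (4.06%), and in *SPO22* and *MER3* but not *GMC2*. Both are shown with the enhancer letters in capitals.
SPO22 intron (chrIX:225861-225888, minus strand): aatgcaaaacATACCCTTattaactttt
MER3 intron (chrVII:31542-31569, minus strand): aagcttagcaACACCCTTatcagtttac

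The matches began 22 bases into the 90-base intron of *SPO22* and 20 bases into the 152-base intron of *MER3*. Of 281 annotated introns in these genes, 205 (73.0%) opened with the usual 5′ splice site letters gtatgt. The intron of *SPO22* opened with gtatat and that of *MER3* with gtagta, each found in 1 of the 281, and the 82-base intron of *GMC2* opened with gtaagt, found in 13.

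In polysomal RNA, all 10 genes passed the threshold in the lower direction and none in the higher direction (edgeR quasi-likelihood test, Benjamini-Hochberg adjusted p under 0.05 over 5493 genes). Over all tested genes the share called lower was 9.38% (515 genes) and the share called higher 8.28% (455 genes). For each of the 10 genes the highest of the 3 *ime4-cat* libraries lay below the lowest of the 3 WT libraries, a separation seen in 17.2% of tested genes.
In 9 of the 10, all but *ZIP2*, the log2 fold change was at or below −1 as well, beside 3.08% of tested genes. Summed over the 10 genes, *ime4-cat* libraries held 700.3, 617 and 646 CPM, against 2213, 1864 and 2255 CPM in WT libraries. The lowest WT sum was thus well above the highest *ime4-cat* sum, and the libraries of a genotype lay close together. Polysomal RNA alone does not separate the amount of an mRNA from its loading with ribosomes, and in these bulk samples fewer cells in prophase and less RNA per cell cannot be told apart.

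**Figure D2:**
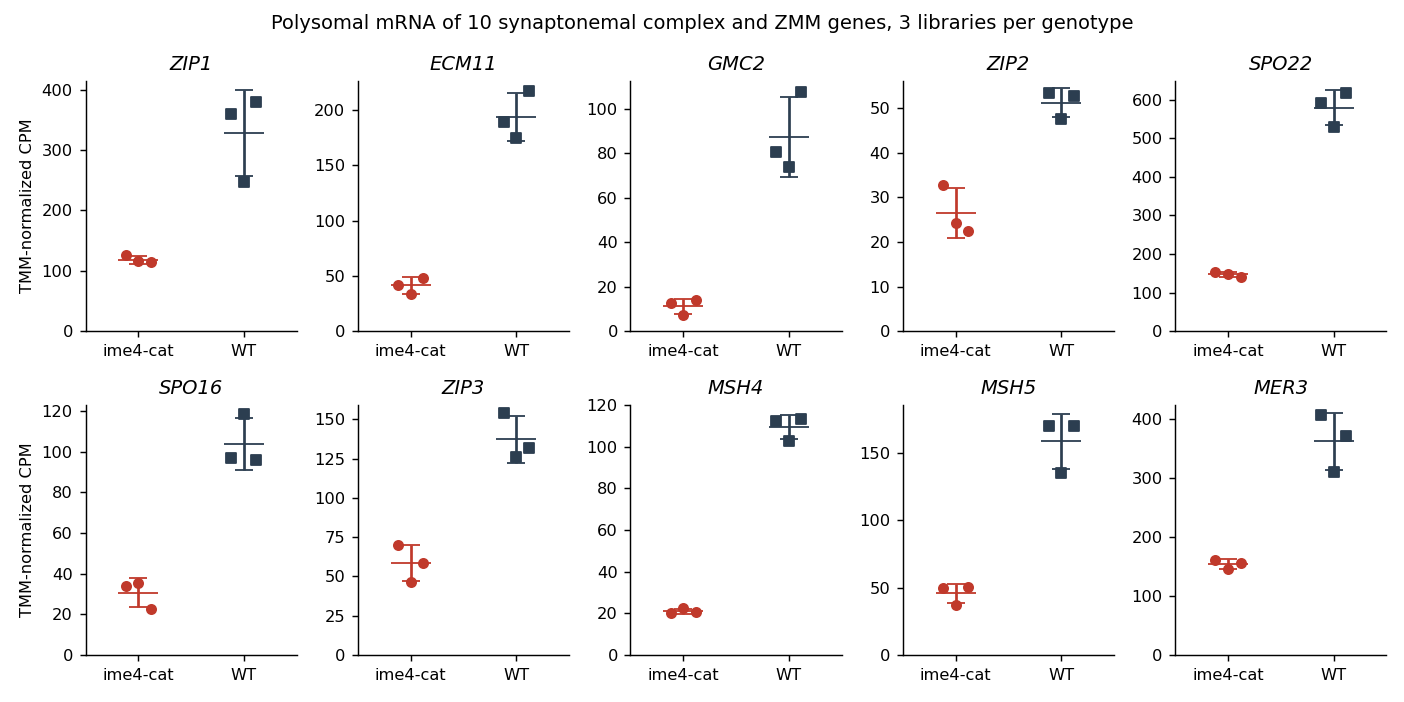
TMM-normalized CPM of each of the 10 genes in the 3 *ime4-cat* (red circles, left) and 3 WT (dark squares, right) polysome libraries; the long horizontal line is the mean and the bar 1 SD, and each panel has its own y axis starting at 0. In every panel the *ime4-cat* points lie below all WT points, with *ZIP2* the closest (22.4 to 32.7 CPM in *ime4-cat*, 47.6 to 53.4 CPM in WT).

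*ZIP1* (YDR285W, chrIV:1032436-1035063, plus strand, 1 exon) encodes the transverse filament protein that spans the width of the synaptonemal complex. It had 126, 116 and 114 CPM in *ime4-cat* libraries, against 359, 247 and 380 CPM in WT libraries (119, 62 and 66 counts against 396, 161 and 498). The WT libraries spread widely, with replicate 2 the lowest, and the *ime4-cat* libraries hardly at all. The log2 fold change was −1.48 ± 0.17 (SE, edgeR adjusted p = 3.6e-06), a level of 35.9% of WT.

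The central element genes had lower log2 fold changes than *ZIP1*, a difference that was not tested. *ECM11* (YDR446W, chrIV:1353725-1354633, plus strand, 1 exon) encodes a protein that is modified by SUMO as the complex assembles. It had 42.2, 33.6 and 48.3 CPM in *ime4-cat* libraries, against 189, 175 and 217 CPM in WT libraries. Its log2 fold change was −2.23 ± 0.19 (SE, edgeR adjusted p = 4.2e-08), and every *ime4-cat* library was at or below 0.276 times the lowest WT library.

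*GMC2* (YLR445W, chrXII:1024189-1024837, plus strand, 2 exons) encodes the partner of Ecm11p. It had 12.7, 7.46 and 13.8 CPM in *ime4-cat* libraries, against 80.6, 73.7 and 107 CPM in WT libraries. These rest on few reads in *ime4-cat*, 12, 4 and 8 counts, against 89, 48 and 141 counts in WT. The log2 fold change of −2.92 ± 0.28 (SE, edgeR adjusted p = 2.1e-07) was the largest decrease of the 10, and only 2 of the 5493 tested genes had a lower one.

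*ZIP2*, *SPO22* and *SPO16* encode proteins that work as one complex on recombination intermediates, with Zip2p and Spo16p related to the subunits of a structure-specific nuclease and Spo22p serving as a scaffold. *SPO22* (YIL073C, chrIX:222937-225954, minus strand, 2 exons) had the highest CPM of the 10 genes in WT. It had 152, 149 and 139.8 CPM in *ime4-cat* libraries, against 592, 528 and 616 CPM in WT libraries. The libraries of each genotype were close to one another and the genotypes far apart, with a log2 fold change of −1.98 ± 0.15 (SE, edgeR adjusted p = 8.8e-09).

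*SPO16* (YHR153C, chrVIII:402086-402682, minus strand, 1 exon) had 33.8, 35.4 and 22.4 CPM in *ime4-cat* libraries, against 96.9, 118 and 96.0 CPM in WT libraries. Replicate 3 was the lowest of the *ime4-cat* libraries, and replicate 2 the highest of the WT libraries. Its log2 fold change was −1.72 ± 0.21 (SE, edgeR adjusted p = 8.2e-06).

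*ZIP2* (YGL249W, chrVII:33098-35212, plus strand, 1 exon) changed least. It had 32.7, 24.2 and 22.4 CPM in *ime4-cat* libraries, against 53.4, 47.6 and 52.6 CPM in WT libraries, on 31, 13 and 13 counts against 59, 31 and 69. The genotypes did not overlap, and the *ime4-cat* libraries stood at 53.2% of the WT level by a log2 fold change of −0.91 ± 0.23 (SE, edgeR adjusted p = 0.0090). It was the one gene of the 10 that was tested under an alternative and not called there: without *ime4-cat* replicate 3 its log2 fold change was −0.79 with an edgeR adjusted p of 0.061. *ZIP2* is also the one gene of the 10 that overlaps another annotated gene, the antisense RNA *RME3* on the opposite strand, and since the strand setting of the counting is not given in the sources used here, reads from *RME3* cannot be told apart from those of *ZIP2*.

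*ZIP3* (YLR394W, listed as *CST9* in RefSeq, chrXII:907950-909398, plus strand, 1 exon) encodes a RING-domain protein that acts in the SUMO pathway at crossover sites. It had 69.7, 46.6 and 58.7 CPM in *ime4-cat* libraries, against 154, 126 and 132 CPM in WT libraries. Replicate 1 was the highest in both genotypes. The log2 fold change was −1.20 ± 0.18 (SE, edgeR adjusted p = 1.1e-04), 43.4% of the WT level.

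*MSH4* and *MSH5* encode the partners of a clamp, related to bacterial MutS, that closes around branched recombination intermediates. *MSH4* (YFL003C, chrVI:134521-137157, minus strand, 1 exon) had 20.1, 22.4 and 20.7 CPM in *ime4-cat* libraries, against 112, 103 and 114 CPM in WT libraries. Its log2 fold change of −2.39 ± 0.21 (SE, edgeR adjusted p = 8.2e-08) had 11 tested genes below it. *MSH5* (YDL154W, chrIV:178334-181039, plus strand, 1 exon) had 49.6, 37.3 and 50.1 CPM in *ime4-cat* libraries, against 170.3, 135 and 169.98 CPM in WT libraries. It fell by 1.79 ± 0.19 on the log2 scale (SE, edgeR adjusted p = 8.8e-07), with replicate 2 the lowest in both genotypes.

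*MER3* (YGL251C, listed as *HFM1* in RefSeq, chrVII:27921-31636, minus strand, 2 exons) encodes a DNA helicase that extends the joint between homologs. It had 162, 145 and 155 CPM in *ime4-cat* libraries, against 406, 310.2 and 370.4 CPM in WT libraries, on 78 to 153 counts against 202 to 486. The log2 fold change was −1.23 ± 0.15 (SE, edgeR adjusted p = 7.6e-06). The *ime4-cat* libraries differed little among themselves, and even the lowest WT library stood well above them.

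Levels of different genes were compared as CPM per kb of coding length, which leaves untranslated regions out of the length. In *ime4-cat* libraries *SPO16*, *SPO22*, *ECM11*, *ZIP1*, *MER3* and *ZIP3* formed one band, with means of 51.2 ± 11.8, 50.2 ± 2.19, 45.5 ± 8.17, 45.1 ± 2.42, 43.2 ± 2.29 and 40.3 ± 7.97 CPM per kb (SD, n = 3 each) and overlapping libraries. Below this band, and not overlapping it, came *GMC2* at 19.95 ± 5.97, *MSH5* at 16.9 ± 2.68, *ZIP2* at 12.5 ± 2.60 and *MSH4* at 7.98 ± 0.451 CPM per kb, of which only *MSH4* was separated from the gene above it. In WT libraries the order was *ECM11* at 213 ± 23.6, *SPO22* at 198 ± 15.4, *SPO16* at 174 ± 21.1, *GMC2* at 154 ± 31.5, *ZIP1* at 125 ± 27.1, *MER3* at 102 ± 13.6 and *ZIP3* at 94.7 ± 10.2 CPM per kb, each overlapping the next. *MSH5* at 58.6 ± 7.47, *MSH4* at 41.6 ± 2.22 and *ZIP2* at 24.2 ± 1.49 CPM per kb were each separated from the gene above. *GMC2* thus stood among the higher genes in WT and below the band in *ime4-cat*, while *MSH4* lay under *ZIP2* in *ime4-cat* and above it in WT. The *ZIP2* counts may hold reads from the antisense RNA *RME3*.

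Ratios of CPM per kb were taken within 4 pairs of genes whose products work together, chosen after the values were seen. *GMC2* over *ECM11* was 0.481, 0.356 and 0.458 in *ime4-cat* libraries, against 0.683, 0.675 and 0.793 in WT libraries. *MSH4* over *MSH5* was 0.415, 0.616 and 0.425 in *ime4-cat*, against 0.677, 0.781 and 0.686 in WT. *ZIP2* over *SPO22* was 0.298, 0.225 and 0.222 in *ime4-cat*, against 0.125, 0.125 and 0.118 in WT, with *ZIP2* counts that may hold reads from *RME3*. In these 3 pairs the genotypes did not overlap. The share of other gene pairs that separate in this way was not counted, so the separation cannot be read as particular to these pairs. Each exact two-sided permutation test gave p = 0.1 (n = 3 each), or 0.133 adjusted over the 4 pairs, which does not cover the choice of the pairs. A p of 0.1 is the smallest that 20 regroupings allow. The test therefore could not have passed 0.05 and decides nothing about these ratios. *SPO16* over *SPO22* was 1.09, 1.16 and 0.787 in *ime4-cat*, against 0.804, 1.10 and 0.765 in WT, with overlapping genotypes and an exact permutation p of 0.5 (n = 3 each).

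Among the 4 genes with a URS1 core the log2 fold changes were −1.98 for *SPO22*, −1.72 for *SPO16*, −1.48 for *ZIP1* and −1.20 for *ZIP3*. The 6 without these letters ranged more widely, from −2.92 for *GMC2* to −0.91 for *ZIP2*, and took both ends of the order. The intron-bearing genes *GMC2*, *SPO22* and *MER3* stood at −2.92, −1.98 and −1.23.

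Genes of neighbouring steps of recombination were counted from lists of known roles. No gene of the axis, break or strand exchange lists, and none of the 10, was higher by edgeR at an unadjusted p under 0.05 or called higher by DESeq2 or limma-trend; in the SUMO pathway and crossover resolution lists 1 gene each was higher at that unadjusted p. The chromosome axis, the protein core to which the synaptonemal complex attaches, was lower in all 5 of its 5 genes, with a median log2 fold change of −1.68. *REC8*, the meiotic cohesin subunit, averaged 136 ± 22.8 CPM in *ime4-cat* and 592 ± 30.1 CPM in WT (SD, n = 3 each). *HOP1*, which coats the axis and to which Red1p binds, averaged 171 ± 24.5 CPM in *ime4-cat* and 397 ± 44.2 CPM in WT. The URS1 core was held by 4 of the 5 axis genes, 3 of the 10 genes for making double-strand breaks, 5 of the 11 strand exchange genes, none of the 10 crossover resolution genes, none of 3 other MutS homologs and 2 of the 9 SUMO pathway genes.

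Of the 10 genes for making double-strand breaks, 6 were lower and none higher, with a median of −0.70. *SPO11*, the break-making enzyme, had a log2 fold change of −2.25 ± 0.21 (SE), and *REC102*, *REC104* and *MEI4*, its meiosis-specific helpers, had −2.28, −2.05 and −1.83. *MRE11*, *RAD50* and *XRS2*, whose products form one complex that also repairs breaks in dividing cells, had log2 fold changes of −0.54 (edgeR adjusted p = 0.054), −0.02 and −0.02 and were not called. With a term for the replicate number in the edgeR fit, *MRE11* was called lower. The same held with upper quartile factors, and with the filter of 10 counts in every library. *SKI8*, which also acts in RNA decay outside meiosis, was lower, with −0.57 ± 0.18 (SE, edgeR adjusted p = 0.030). Without WT replicate 2 or 3, or without *ime4-cat* replicate 2 or 3, edgeR did not call *SKI8*. DESeq2 called neither *SKI8* nor *MEI4*. *REC107*, also called *MER2*, which like *SPO22* and *MER3* has a Mer1p-dependent intron, stood at −0.38 ± 0.16 (SE, edgeR adjusted p = 0.096).

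Of the 11 strand exchange genes, 8 were lower and none higher, with a median of −1.45. *DMC1*, the meiotic recombinase, averaged 425 ± 23.2 CPM in *ime4-cat* and 1412 ± 51.6 CPM in WT. *MEI5*, a helper of Dmc1p, had the lowest log2 fold change of this list, −2.87 ± 0.18 (SE). Of the genes that also serve repair in dividing cells, *RAD52* and *RDH54* were lower, with log2 fold changes of −0.69 ± 0.17 (SE, edgeR adjusted p = 0.0069) and −0.66 ± 0.20 (SE, adjusted p = 0.029). *RAD54*, *RAD55* and *RAD57* were not called. Without *ime4-cat* replicate 3, *RAD52* and *RDH54* were not called either.

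The genes that act after the ZMM proteins had a median closer to 0. Of the 10 crossover resolution genes 3 were lower and none higher, with a median of −0.42. *MLH3*, whose product helps to cut ZMM-protected joints, averaged 104 ± 10.9 CPM in *ime4-cat* and 159 ± 25.2 CPM in WT (SD, n = 3 each, edgeR adjusted p = 0.013). *EXO1* had a log2 fold change of −0.80 ± 0.22, and *SGS1*, the helicase that the ZMM proteins hold off, one of −0.98 ± 0.18 (SE). This count depended on single libraries, with 1 gene of the list left lower without WT replicate 3. *YEN1*, a nuclease of late meiosis, averaged 72.7 ± 18.4 CPM in *ime4-cat* and 44.0 ± 8.95 CPM in WT (edgeR adjusted p = 0.057). It was called higher by limma-trend but not by DESeq2. By edgeR it was called higher without *ime4-cat* replicate 1, with the filter of 1 count in total, or with a term for the replicate number.

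None of 3 other MutS homologs, which serve DNA repair in mitochondria or the nucleus, was called by edgeR in either direction, nor by DESeq2 or limma-trend. At an unadjusted p under 0.05, 1 of them was lower and 1 higher. With a term for the replicate number in the edgeR fit, *MSH3* was called higher. Their log2 fold changes ran between −0.79 for *MSH1* and 0.38 for *MSH3*, beside −2.39 for *MSH4* and −1.79 for *MSH5*, and the difference between the genes was not tested.

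In the SUMO pathway, which modifies Ecm11p, 3 of 8 tested genes were lower and none higher, and *MMS21* had too few counts to be tested. *SMT3*, which encodes SUMO itself, averaged 134 ± 20.6 CPM in *ime4-cat* and 251 ± 15.6 CPM in WT. *UBC9*, the conjugating enzyme, had a log2 fold change of −0.52 ± 0.16 (SE, edgeR adjusted p = 0.027). It was not called by DESeq2, nor by edgeR without WT replicate 2 or 3 or without *ime4-cat* replicate 1, 2 or 3. *ULP2*, which trims SUMO chains, had a log2 fold change of −1.84 ± 0.15 (SE). The ligase genes *SIZ1* and *NFI1* stood at 0.37 and 0.51 and were not called. Both were called higher with a term for the replicate number in the edgeR fit.

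Of the genes that splice or share the Mer1p-dependent introns, *MER1* itself was too low to be tested, with 1, 0 and 3 counts in *ime4-cat* libraries against 9, 6 and 10 counts in WT libraries. *AMA1*, another gene with such an intron, averaged 126 ± 38.1 CPM in *ime4-cat* and 279.9 ± 34.2 CPM in WT, a log2 fold change of −1.12 ± 0.18 (SE). *NAM8* stood at −0.44 ± 0.18 (SE) and was not called.

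**Figure D3:**
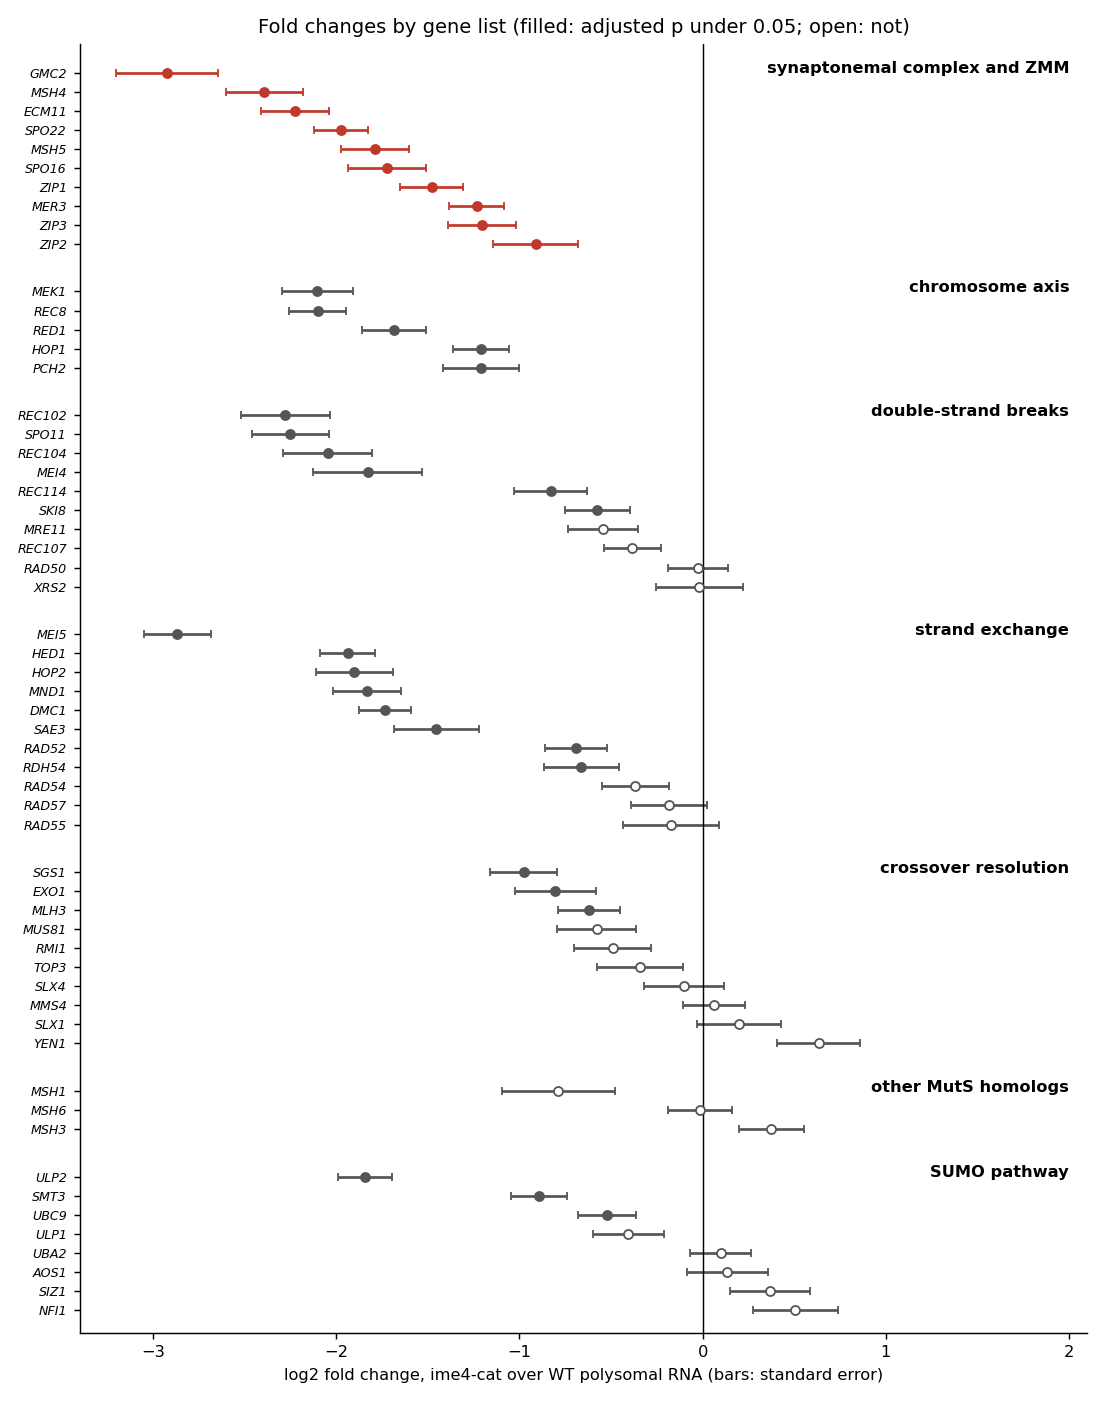
Log2 fold change of polysomal RNA, *ime4-cat* over WT, for the 10 genes (red) and 6 lists of neighbouring recombination genes (grey); bars are standard errors, filled points have an adjusted p under 0.05 and open points do not. All 10 red points are filled and lie between −2.92 and −0.91, whereas the crossover resolution genes spread between −0.98 and 0.63.

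Among 11 regulators of meiotic entry, 5 were lower and 1 higher. *RME1* was the one that rose, with 165 ± 5.65 CPM in *ime4-cat* and 81.3 ± 7.90 CPM in WT (SD, n = 3 each, log2 fold change 1.02 ± 0.16 SE). *IME1*, the master activator of early genes, had a log2 fold change of −0.86 ± 0.16, and *IME2*, a kinase gene that it activates, one of −1.64 ± 0.15 (SE). *NDT80*, which drives exit from prophase, averaged 18.7 ± 6.77 CPM in *ime4-cat* and 42.6 ± 12.3 CPM in WT (edgeR adjusted p = 0.0094). *UME6* stood at −0.37 ± 0.17 and was not called.

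The labelled meiotic cells carried early meiotic markers in every library, and 6 of 6 were lower in *ime4-cat*, with a summed level of 1249 to 1487 CPM in *ime4-cat* and 3655 to 4042 CPM in WT. Middle sporulation markers were scarce: 6 of 10 could be tested, 1 (*NDT80*) was lower, and all 10 summed to 117 to 186 CPM in *ime4-cat* and 158 to 235 CPM in WT. None was called higher by edgeR, DESeq2 or limma-trend. *SPS2* was called lower by limma-trend, and by edgeR with upper quartile factors, no TMM factors, a replicate term or without *ime4-cat* replicate 1. The filter of 1 count in total added *SPR3* and *SPS4* as lower. With the filter of 10 counts in every library *NDT80* was not called. The 6 haploid cell markers summed to 75.0 to 106 CPM in *ime4-cat* and 68.8 to 78.5 CPM in WT, with 0 of 3 tested called by edgeR, DESeq2 or limma-trend. The log2 fold changes of these 3 ran from 0.16 to 0.86. *MF(ALPHA)2*, with 21.1 CPM in *ime4-cat* and 11.7 CPM in WT, was higher by edgeR at an unadjusted p under 0.05 (adjusted p = 0.078). *MFA2* had 0, 0 and 2 counts in *ime4-cat* libraries and 3, 2 and 4 counts in WT libraries. The part of these shifts in the levels of the 10 genes was not tested.

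Over all 18 RNA-seq libraries the levels were scaled together, which changed the CPM of the 10 genes in the 6 tested libraries by 0.37% to 3.28%. Each set of 3 unassigned libraries is called here by its title, which is not taken as its genotype or fraction. The tables titled WT input carry the number of the *ime4-cat* strain and the letter t, and those titled *rme1-10* polysome the number of the WT strain and the letter t. The tables titled *rme1-10* input and *ime4-cat* input both carry the number of the *rme1-10* strain, a diploid with a single base substitution in the 3′ untranslated region of *RME1*, with the letters p and t. The *ime4-cat* polysome libraries lay below the 3 libraries titled *rme1-10* polysome, the 3 titled *rme1-10* input and the 3 titled *ime4-cat* input for all 10 genes. The libraries titled WT input lay below those titled *rme1-10* polysome for 10 of 10 genes, *ime4-cat* input for 9, *rme1-10* input for 8 and the WT polysome libraries for 8. The share of all genes separated in this way was not counted for these libraries, so these numbers cannot be read as particular to the 10 genes.

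*GMC2* had 19.3, 11.0 and 60.8 CPM in the libraries titled WT input, with the third far above the others. It had 103 to 106 CPM in those titled *rme1-10* polysome, 69.6 to 96.5 CPM in *rme1-10* input and 78.1 to 102 CPM in *ime4-cat* input. *ECM11* likewise had 34.5, 34.8 and 167 CPM in the libraries titled WT input, and 180.3 to 269 CPM over the other 9 unassigned libraries. *ZIP1* had 89.2, 96.7 and 247.5 CPM in the libraries titled WT input and 280.05 to 425 CPM over the other 9.

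Between libraries that share a strain number and differ in the letter, the genes did not all stand in the same order. *SPO22*, *ZIP3* and *MER3* were lower in all 3 libraries titled *rme1-10* polysome than in all 3 WT polysome libraries, which share their strain number, while *ECM11*, *ZIP2*, *SPO16*, *MSH4* and *MSH5* were higher. *SPO22*, *ZIP3* and *MER3* were also lower in the libraries titled *ime4-cat* input than in those titled *rme1-10* input, which share a strain number too, and *SPO16* and *MSH5* were higher. Since the titles of these libraries disagree with the number or letter, no fraction or genotype was read from this. The share of all genes that stood apart in these ways was not counted either.

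**Figure D4:**
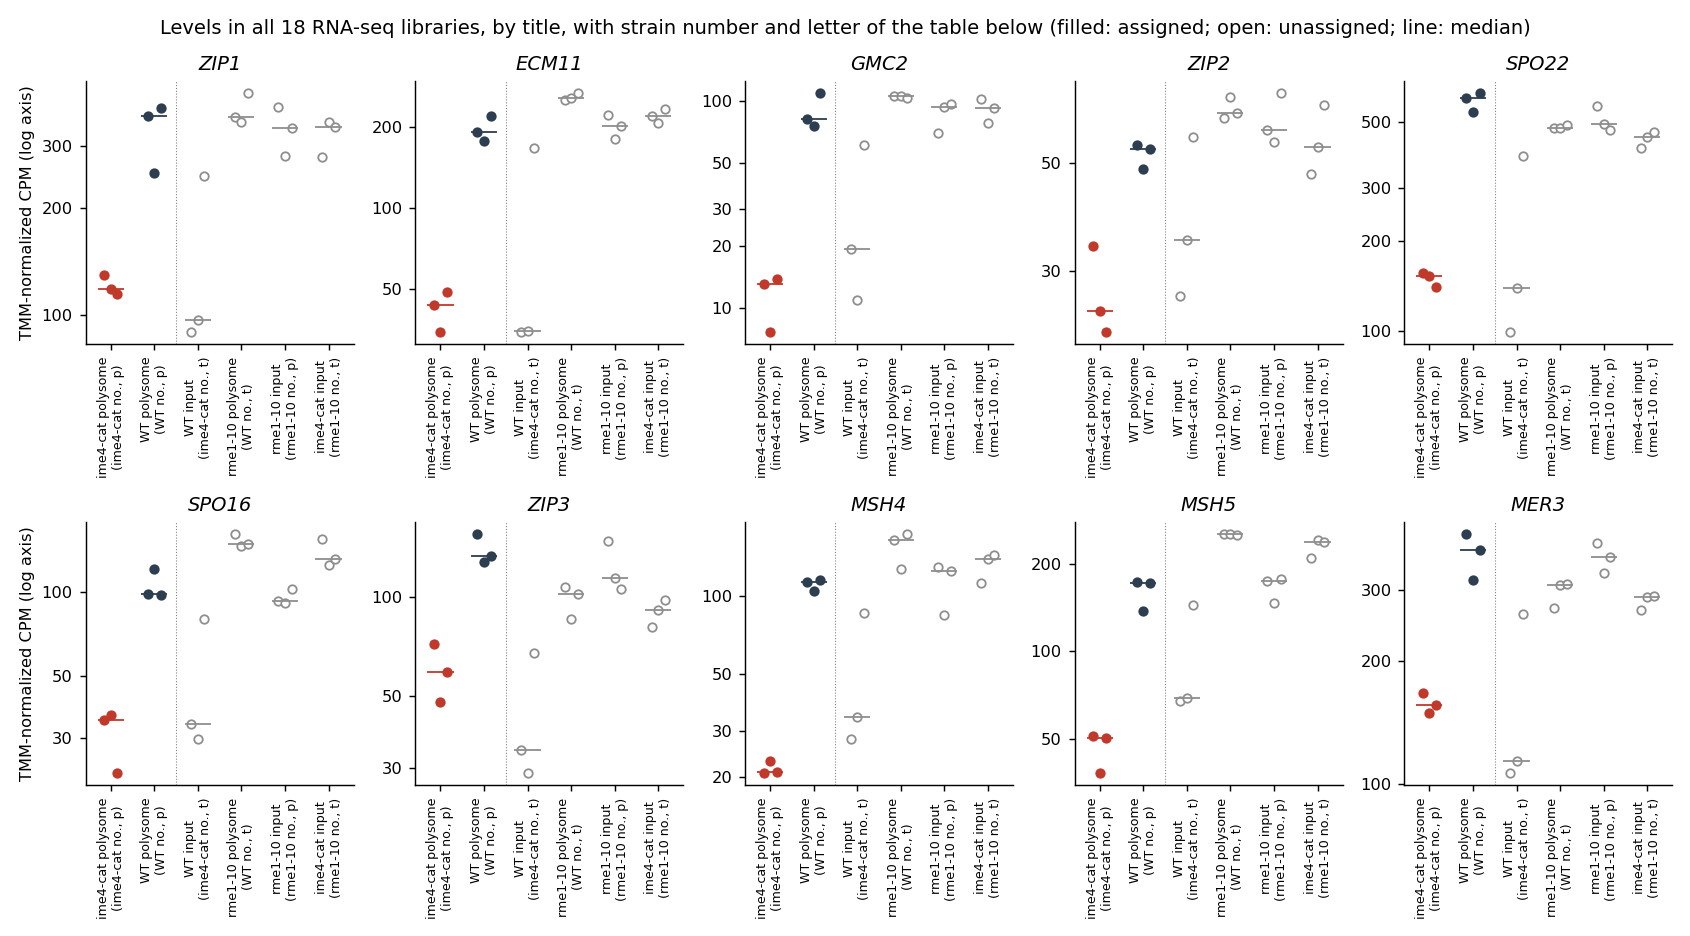
TMM-normalized CPM (log axis, scaled over 18 libraries) of each of the 10 genes by the title on GEO's label, with the strain whose number the tables carry and their letter in parentheses; filled points are the assigned *ime4-cat* and WT polysome libraries, open points the 12 unassigned ones, and lines are medians. In every panel the *ime4-cat* polysome points lie below the points titled *rme1-10* polysome, *rme1-10* input and *ime4-cat* input, and 1 point titled WT input stands above the other 2.

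The 10 genes followed one another closely across the 18 libraries. The Pearson r of each gene's log2(CPM + 1) with the mean standardized profile of the other 9 ran between 0.830 for *ZIP3* and 0.990 for *ECM11*, with *ZIP2* at 0.926 and *MER3* at 0.930. The libraries share strains, medium and time, and 2 sets of them hold the lower levels, so these values describe the set and carry no p. Among genes with a mean of at least 50 counts, the 5 outside the set most like its mean profile were *REC8* (r = 0.989), *ARO9* (0.989), *RED1* (0.986), *RNP1* (0.986) and *IME2* (0.983). *REC8* and *RED1* encode axis proteins, and *ARO9* an aromatic aminotransferase. Of 4401 genes, counting the 10 themselves, 95 had an r over 0.9 with this mean profile, and the median was −0.01. The 10 form part of the profile they are set against in this count. Without the 1 library titled WT input that stood apart, 4 of these 5 were still among the first 5, *MNE1* (0.991) coming in and *IME2* (0.984) falling out.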

How the data were processed

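The authors deposited raw counts, that is unnormalized whole numbers of reads for 7126 genes, with 1 table for each RNA-seq library; its 5 closing entries entered neither the library sizes nor the tests. The submitters' processing notes name TopHat2 and sacCer3; the counting program and its strand setting are not given in the sources used here. In the 6 libraries tested, 85.2% to 94.3% of entries were non-unique reads, 3.22% to 8.28% fell on no feature and 0.0132% to 0.0327% were ambiguous, leaving 586141 to 1262397 counts on genes per library (586141 to 6009889 over all 18). Genes with few counts are therefore limited by counting error, and the common biological coefficient of variation was 0.126.

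Groups came from GEO's titles where the strain number and letter of the table named the same genotype and fraction, as listed in the study's strain table. Replicates are described as biological in the study's methods. Counts of 3 *ime4-cat* and 3 WT polysome libraries were tested with edgeR 4.0.16 in R 4.3.3 (filterByExpr, TMM, glmQLFit, glmQLFTest, genotype as the only term, two-sided), with Benjamini-Hochberg adjustment over 5493 genes and a threshold of 0.05. Standard errors are the log2 fold change over the square root of the F statistic. The fit was tested on simulated data. Same-numbered libraries of the genotypes had correlated deviations of 0.523, 0.508 and 0.0881 over 3146 genes. Differently numbered libraries had lower ones, from −0.530 to 0.00906. As replicate 3 stayed under 0.1, the main fit did not pair the samples by number. Whether equal numbers mark a shared batch was not tested, and a fit with a block for the replicate number is among the alternatives. No 2 replicates of a set were alike within sampling noise (chi-square per degree of freedom 1.58 or more).

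The 10 genes and the gene lists were chosen with earlier results of these data known. In the strand exchange, crossover resolution and MutS homolog lists 1 gene each is not reported here and was left out of the counts, for a reason unrelated to its values. The genes named were the 10, genes of these lists by role, and the 5 most alike over the 18 libraries. Symbols, introns, coordinates and sequence came from the RefSeq annotation of R64, which gave symbols for 6048 of the 7126 genes. Alternatives were other scalings (DESeq2 size factors, none, upper quartile, TMM over 18 libraries), the DESeq2 1.42.0 Wald test, limma-trend (limma 3.58.1, prior count 2), leaving out each replicate, a block for the replicate number, filters of 1 count in total or of 10 counts per library throughout, and a threshold of 0.01. Figures were drawn with matplotlib 3.10.9 in Python 3.11.15.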

Additional observations from a re-analysis of the deposited data

Results flagged for a closer look

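Some genes stood higher in all 3 libraries of an unassigned set than in any WT polysome library. The differences were not tested, and the share of all genes that did so was not counted. The titles of these libraries disagree with their number or letter. *SPO22*, *ZIP3* and *MER3* went the other way. They lay below every WT polysome library in all 3 libraries titled *rme1-10* polysome and in all 3 titled *ime4-cat* input. In the 3 libraries titled *rme1-10* polysome, the median CPM over that of the WT polysome libraries was 1.34 for *ECM11*, 1.18 for *ZIP2*, 1.51 for *SPO16*, 1.44 for *MSH4* and 1.47 for *MSH5*. *MSH5* ran from 252 to 254 CPM in these libraries, against 138 to 173 CPM in WT polysome libraries. In the 3 titled *rme1-10* input the ratio was 1.09 for *ZIP2*. In the 3 titled *ime4-cat* input it was 1.33 for *SPO16* and 1.38 for *MSH5*.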

How the results depend on the processing

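Of the 10 genes, 10 stayed lower past the threshold under 14 of 16 alternatives and none was higher under any. The exceptions were the filter of at least 10 counts in every library, which removed *GMC2* and left 9, and the fit without *ime4-cat* replicate 3, which left 9. *ZIP2* was the gene lost there (−0.79, adjusted p = 0.061), and its log2 fold change ran from −1.14 to −0.79 as each replicate was left out; over its 15 alternatives the adjusted p ran from 0.00098 to 0.061. Over all genes the counts moved more than those of the 10: 515 lower and 455 higher became 331 and 343 with the DESeq2 Wald test, which gave 959 genes no adjusted p, and 298 and 214 at an adjusted p under 0.01. Leaving out 1 replicate gave 307 to 488 lower and 203 to 478 higher, lowest for lower without *ime4-cat* replicate 3 (307 lower, 270 higher) and for higher without WT replicate 3 (308 lower, 203 higher). With a replicate block, 800 genes were lower and 805 higher, and all 970 earlier calls were among them; the 10 genes were called as before. Among the lists the block added *MUS81* and *RMI1* (lower) and *YEN1* (higher) of crossover resolution, *MSH3* (higher) of the MutS homologs, *NFI1* and *SIZ1* (higher) of the SUMO pathway, *MRE11* and *REC107* (lower) of the break genes, and *NAM8*, *IME4*, *UME6* and *SPS2* (lower). Other alternatives also called *IME4* lower, namely no TMM factors, upper quartile factors, both other filters, and the fit without *ime4-cat* replicate 1. Library totals without TMM factors moved the share of calls that were higher to 36.8%, beside 46.9%, and the median of all genes by less than 0.1 on the log2 scale. Low counts limit *GMC2* (4 to 12 in *ime4-cat*) and *MER1* most.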

Other observations

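Among the unassigned libraries, the summed level of the 10 genes was lower in all those titled WT input than in any other. It was 539, 592 and 1555 CPM in the libraries titled WT input, 2218, 2181 and 2336 CPM in those titled *rme1-10* polysome, 2238, 1869 and 2050 CPM in those titled *rme1-10* input, and 1884, 2021 and 2095 CPM in those titled *ime4-cat* input. On the same scale it was 723, 633 and 648 CPM in the *ime4-cat* polysome libraries and 2247, 1901 and 2285 CPM in the WT polysome libraries. The first and second libraries titled WT input thus lay below the *ime4-cat* polysome libraries, and the third between them and every other library.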
